A study of Homo sapiens with 2 samples.

Results

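To examine how the genes of the lysosome and of its proton pump stood in glioblastoma cells after activation of the liver X receptor (LXR), 37 genes were followed by name: the subunits of the V-ATPase, lysosomal membrane proteins, lysosomal enzymes and the TFEB family of transcription factors. They were chosen by symbol, and 36 of the 37 had a row among the 22458 named genes of the array table. ATP6V0A4 was not analysed here. U87 cells, an established human glioblastoma line, had received 20 µM LXR623, a synthetic LXR agonist, or 0.1% DMSO, the solvent. RNA was taken after 24 h, and the treatment text gives a medium of reduced serum. Each condition was hybridized to 1 array (n = 1 per group), and every difference given here therefore describes these 2 arrays, without a replicate, a test or an error. Each array measured RNA of a whole culture, so that fewer cells expressing a gene and less of its RNA per cell cannot be told apart.

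Values are log2 expression as deposited, and a difference is log2 LXR623 minus log2 DMSO. A gene was kept if its average level was at least log2 3.39, the 25th percentile of the table, which left 16902 genes, all 36 measured members among them. Across the kept genes, which do not count as replicates, the LXR623 and DMSO arrays had r = 0.989. ABCA1, the cholesterol exporter that LXR induces, was at 10.1 on the LXR623 array and 8.30 on the DMSO array, a 3.46-fold difference in the direction the treatment label implies. Of the glioma and mesenchymal markers, all 9 measured were kept and lay between 5.95 and 12.5 on the LXR623 array and between 6.22 and 12.1 on the DMSO array. Their median difference was -0.23, with 3 higher and 6 lower, and its part in the results was not tested. Of 12 colon epithelial markers, 2 were below the filter, and the other 10 lay between 3.60 and 5.67 with LXR623 and between 3.53 and 5.33 with DMSO. These were examined because the culture text of the labels names HCT116, a colon line, where all other labels name U87. Levels of different probe sets are not on a common scale, so the conflict was not settled. Microglia and macrophages are phagocytes rich in lysosomes, and of their 10 markers 5 were below the filter, among them PTPRC and CD163, and the others lay between 3.50 and 4.91 with LXR623 and between 3.51 and 5.02 with DMSO.

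As background, the V-ATPase is a rotary pump that spends ATP to move protons into lysosomes and other organelles. Its V1 sector stands in the cytosol and hydrolyzes ATP, and its V0 sector lies in the membrane and carries the protons. The acid it makes is needed by the hydrolases that digest proteins, glycans and lipids, including cholesterol esters brought in by lipoproteins. TFEB, TFE3 and MITF bind E-box sequences in many lysosomal promoters and drive these genes together when the kinase mTORC1, which sits on the lysosome, is inactive.

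One member stood far from the others. ATP6V0D2, which encodes the d2 isoform of the V0 stalk subunit and is best known from osteoclasts and macrophages, was at 8.62 on the LXR623 array and 7.05 on the DMSO array. The difference of 1.57 (2.98-fold) ranked 16th from the highest of the 16902 genes, while the central 95% of the 500 genes nearest to it in level lay between -0.53 and 0.49. Of the microglia and macrophage markers, 1 of the 5 kept was higher (20%, beside 48.8% of all kept genes), with a median of -0.048. None of these 5 differed by 1.2-fold, where 15.3% of all kept genes were higher and 13.6% lower. Below the filter, P2RY12 differed by 0.39 and CD14 by 0.29. AIF1 differed by -0.26 and CD163 by -0.13, and the 2 values of PTPRC were identical. The part of such cells in the value of ATP6V0D2 was not tested. Apart from ATP6V0D2, the members differed little. In all, 25 of 36 were higher on the LXR623 array (69.4%), beside 48.8% of all kept genes, and 11 were lower. Their median difference was 0.094 and that of all kept genes 0.00. ATP6V0D2 was the 1 member at least 1.5-fold higher, beside 2.38% of all kept genes. None was at least 1.5-fold lower, beside 2.01%. At the smaller threshold of 1.2-fold, 9 members were higher (25%, beside 15.3% of all kept genes) and 4 were lower (11.1%, beside 13.6%). The other 35 members lay inside the central 95% of the 500 genes nearest to each in level.

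**Figure D1:**
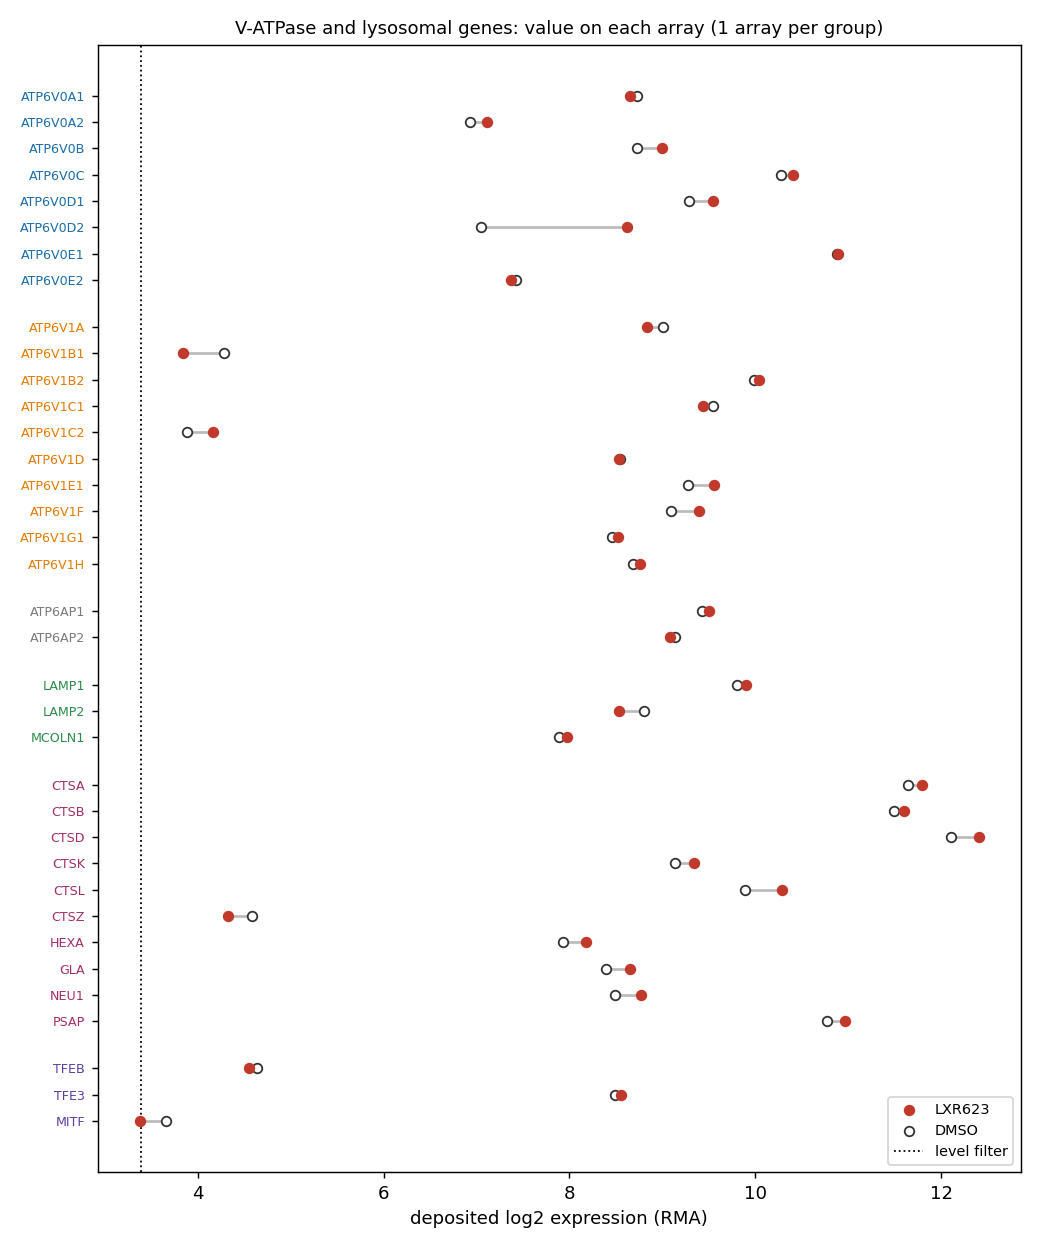
Deposited log2 expression of the 36 measured genes (horizontal axis) on the LXR623 array (filled) and the DMSO array (open), 1 array per group, grouped by role in the order V0, V1, accessory, membrane, hydrolases and TFEB family. ATP6V0D2 shows the widest gap, 8.62 with LXR623 and 7.05 with DMSO, and the value of MITF on the LXR623 array, 3.37, lies just below the dotted level filter.

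The TFEB family was examined first, since its members act on the promoters of the rest. TFE3 was at 8.55 with LXR623 and 8.49 with DMSO, a difference of 0.062. TFEB was at 4.55 and MITF at 3.37 on the LXR623 array, against 4.63 for TFEB and 3.66 for MITF on the DMSO array. Their differences were -0.086 for TFEB and -0.28 for MITF (1.22-fold lower). TFEB and MITF lay below the median level of all probe sets (4.89), and none of the 3 factors left the range of genes at its level. The array does not report where these proteins are in the cell, which is how they are chiefly controlled.

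The sequence these factors read was looked for in the promoters of the members. RefSeq promoter windows (GRCh38.p14), which run from 250 bases before to 50 bases after the start site, were matched for 26 of the 37 members. The letters TCACGTG, on either strand, were in 9 of the 26 (34.6%), beside 3.82% of 27305 promoters in the same table. The 6-letter core CACGTG, which lies inside that string, was in the same count of members, 9, and in 7.43% of all promoters. The longer GTCACGTG, which contains both, was in 7 members (26.9%) and in 2.53% of all promoters. E-boxes are known from many lysosomal promoters, as given above, so high shares could be foreseen from the choice of genes. They do not describe the arrays. Windows of 30 bases around 12 of the 17 sites follow, because they let the promoters of pump and enzyme genes be set side by side. Of the 6 windows of LAMP1, the nearest one before the start site is shown, and the windows of the other genes are all given. Each is read 5′ to 3′ on the strand of its gene. The capitals mark the 6-letter core, with T or GT directly before it and A or AC directly after it where present. Each side was marked on its own, so a marked stretch need not be a palindrome.
ATP6V0B, chr1:43974891-43974920, plus strand: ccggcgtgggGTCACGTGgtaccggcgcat
ATP6V0B, chr1:43974909-43974938, plus strand: gtaccggcgcaTCACGTGggcgagttaggt
ATP6V0D1, chr16:67481199-67481228, minus strand: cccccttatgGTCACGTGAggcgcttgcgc
ATP6V0E2, chr7:149872884-149872913, plus strand: tcccttctgcaTCACGTGgggactgcgcct
ATP6V1G1, chr9:114587699-114587728, plus strand: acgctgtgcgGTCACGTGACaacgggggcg
LAMP1, chr13:113297199-113297228, plus strand: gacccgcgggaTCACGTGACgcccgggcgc
MCOLN1, chr19:7522571-7522600, plus strand: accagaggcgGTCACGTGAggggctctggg
MCOLN1, chr19:7522598-7522627, plus strand: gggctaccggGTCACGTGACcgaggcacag
CTSA, chr20:45891281-45891310, plus strand: gaggaagactGTCACGTGgcgccggagttc
CTSA, chr20:45891298-45891327, plus strand: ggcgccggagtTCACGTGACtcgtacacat
CTSD, chr11:1763957-1763986, minus strand: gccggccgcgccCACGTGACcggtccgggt
NEU1, chr6:31862930-31862959, minus strand: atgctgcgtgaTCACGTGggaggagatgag

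Of the 17 such sites in these 9 promoters, 11 had their center less than 100 bases before the start site. LAMP1 held 6, of which 4 lay in a run with centers 189, 173, 156 and 139 bases before the start site. Of the 9 members with TCACGTG, 8 were higher on the LXR623 array, with a median difference of 0.16. Of the 16 kept members whose window lacked it, 9 were higher, with a median of 0.072. Of all kept genes, 48.8% were higher. The 5 members below the median level of all probe sets, ATP6V1B1, ATP6V1C2, CTSZ, TFEB and MITF, were all among the 16. Of these only ATP6V1C2 was higher, so the 2 groups also differ in level. Whether the members with and without it differ was not tested. A match is a description of these letters and not evidence of binding. A window without a match lacks only these letters. ATP6V0D2 was not among the matched promoters.

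In the membrane sector of the pump, 6 of 8 measured subunits were higher on the LXR623 array (75%, beside 48.8% of all kept genes). Their median difference was 0.16. The d subunit couples the sectors, and both of its isoforms were higher. Next to ATP6V0D2 stood ATP6V0D1, the widespread isoform, at 9.55 with LXR623 and 9.28 with DMSO, a difference of 0.26. ATP6V0B, which encodes a proteolipid of the proton-carrying ring, was at 9.00 with LXR623 and 8.73 with DMSO, a difference of 0.27. ATP6V0C, the main proteolipid of that ring, differed by 0.14, at 10.4 with LXR623 and 10.3 with DMSO. The large a subunits form the proton path and direct the pump to its organelle. ATP6V0A2, found on Golgi and endosomes, was at 7.11 with LXR623 and 6.93 with DMSO, a difference of 0.18. ATP6V0A1, the main isoform of neurons, was at 8.65 with LXR623 and 8.73 with DMSO, a difference of -0.081. The small e subunits lay nearest to 0. ATP6V0E1 was at 10.89 with LXR623 and 10.88 with DMSO, a difference of 0.012, and ATP6V0E2 was at 7.38 with LXR623 and 7.43 with DMSO, a difference of -0.050. The sign of ATP6V0E1 turned when each array was centered on its median (-0.028) or when a lowess curve on level was removed (-0.015). Without ATP6V0D2 the sector's median was 0.14.

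The a3 isoform TCIRG1, which osteoclasts use together with d2 and which was not among the 37, differed by 0.45, at 8.40 with LXR623 and 7.96 with DMSO. It was the largest difference among the 4 kept V-ATPase isoforms outside the 37. The others were ATP6V1G2 at 0.071, ATP6V1E2 at 0.041, which turned to -0.0047 with the lowess curve removed, and ATP6AP1L, whose 2 values were identical.

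In the cytosolic sector, 6 of 10 subunits were higher (60%, beside 48.8% of all kept genes) and 4 lower. The median was 0.058. ATP6V1F, a subunit of the central shaft, was at 9.39 with LXR623 and 9.09 with DMSO (1.23-fold). ATP6V1E1, part of the outer stalks that hold the motor still, was at 9.55 with LXR623 and 9.28 with DMSO (1.21-fold). The subunits of the catalytic head stood close to 0 or below it. ATP6V1A, which carries the site of ATP hydrolysis, was at 8.83 with LXR623 and 9.00 with DMSO, a difference of -0.17, and ATP6V1B2, its widespread partner, was at 10.04 with LXR623 and 9.99 with DMSO, a difference of 0.051. Subunits C and H take part in joining and parting the sectors. ATP6V1C1 was at 9.44 with LXR623 and 9.55 with DMSO, a difference of -0.10, and ATP6V1H was at 8.76 with LXR623 and 8.69 with DMSO, a difference of 0.078. ATP6V1G1 in the outer stalks was at 8.52 with LXR623 and 8.46 with DMSO, a difference of 0.064. ATP6V1D of the central shaft had the smallest difference of the sector, at 8.54 on both arrays (-0.0061), a value that turned to 0.022 when the lowess curve was removed.

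The sector also holds a pair of tissue-restricted isoforms. ATP6V1B1, the isoform of acid-secreting cells of the kidney and inner ear, was at 3.84 with LXR623 and 4.28 with DMSO. Its difference of -0.45 was the lowest of all 36 members. ATP6V1C2, an isoform of kidney and lung, was at 4.17 with LXR623 and 3.89 with DMSO, a difference of 0.28. Both lay below the median level of all probe sets, and neither left the range of genes at its level. With these 2 left out by a filter at the 50th percentile, the V1 differences ran only from -0.17 to 0.30. The accessory subunits bracketed 0. ATP6AP1, which helps V0 to assemble, was at 9.50 with LXR623 and 9.42 with DMSO, a difference of 0.083. ATP6AP2, also known as the prorenin receptor, was at 9.08 with LXR623 and 9.13 with DMSO, a difference of -0.049. Genes that act on the assembly of the pump or on the joining and parting of its sectors had a median of -0.026. Of 10 kept members, 3 were higher, 6 lower and 1 equal. The share higher was 30%, beside 48.8% of all kept genes. VMA21, a chaperone of V0 assembly in the endoplasmic reticulum, was the lowest at -0.31, and VMA12 followed at -0.20. OXR1 differed by -0.085 and VMA22 by 0.083.

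**Figure D2:**
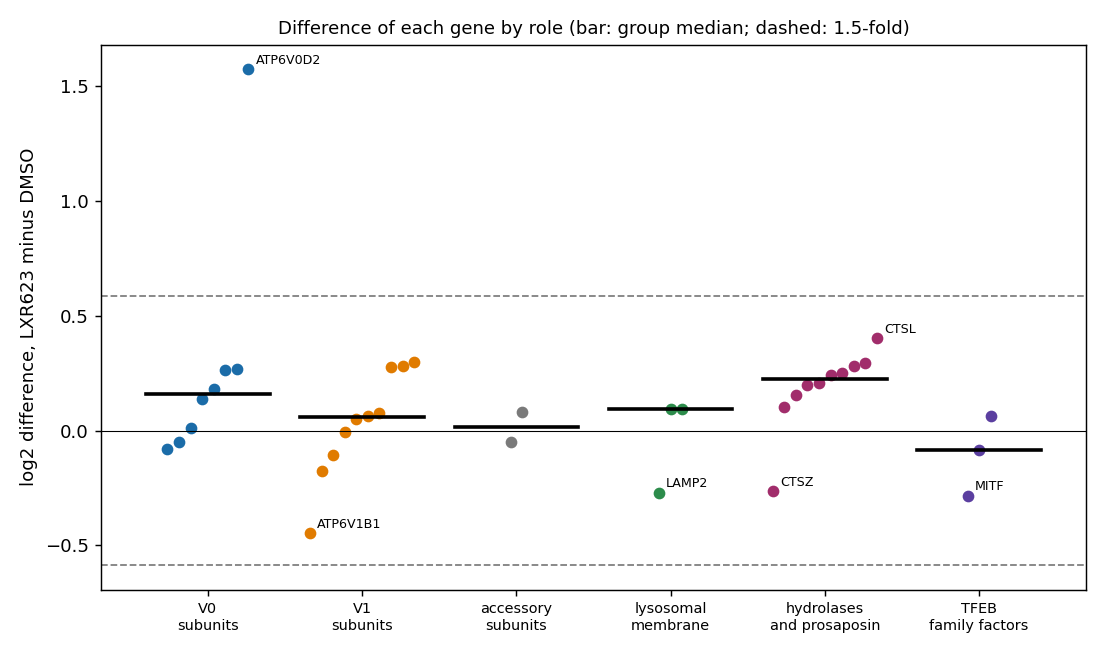
Log2 difference, LXR623 minus DMSO, of each of the 36 measured genes by role, 1 point per gene from 1 array per group, with the group median as a bar and 1.5-fold as dashed lines. Only ATP6V0D2, at 1.57, lies outside the dashed lines, and 9 of the 10 genes of the hydrolase group lie above 0.

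Of the proteins of the lysosomal membrane, LAMP1, the most abundant glycoprotein of its inner coat, was at 9.90 with LXR623 and 9.81 with DMSO, a difference of 0.095. MCOLN1, the calcium channel that activates TFEB through calcineurin, differed by 0.093, at 7.98 with LXR623 and 7.89 with DMSO. LAMP2, which also serves as receptor of chaperone-mediated autophagy, went the other way, at 8.54 with LXR623 and 8.81 with DMSO (1.21-fold lower). The group's median was 0.093 and its mean -0.027, so that its sign rests on the measure used. Among 30 other kept membrane proteins 15 were higher (50%, beside 48.8% of all kept genes) and 15 lower. Their median of 0.019 turned to -0.021 with median centering. SLC17A5, the sialic acid exporter, differed by 0.52, SLC66A1, which exports cationic amino acids, by 0.51, and CTNS, the cystine exporter mutated in cystinosis, by 0.45. SLC17A5 and CTNS lay outside the range of genes at their level. LAMP3 differed by 0.34, with a DMSO value of 3.30 that lay below the level filter. NPC1, which carries cholesterol out of the lysosome, was at 10.3 with LXR623 and 10.0 with DMSO, a difference of 0.31.

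Among the member groups, the enzymes and the saposin precursor had the largest share of higher genes and the largest median. By the mean, V0 with ATP6V0D2 stood above them, at 0.29 against 0.19. Of 10, 9 were higher on the LXR623 array (90.0%, beside 48.8% of all kept genes), with a median of 0.22. Each of the 9 differed by between 0.10 and 0.40. CTSL, a cysteine protease of broad specificity, was at 10.3 with LXR623 and 9.89 with DMSO (1.32-fold). CTSD, the main aspartic protease of the lysosome, was at 12.4 with LXR623 and 12.1 with DMSO (1.23-fold). CTSK, the collagen-cleaving protease of osteoclasts, was at 9.35 with LXR623 and 9.14 with DMSO (1.15-fold). These 3 proteases were higher by amounts inside the range of genes at their level. CTSB, another cysteine protease, was at 11.6 with LXR623 and 11.5 with DMSO, and its difference of 0.10 was the smallest among the 9.

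CTSA, NEU1 and GLB1 form a complex in which cathepsin A protects the sialidase and the beta-galactosidase. NEU1 was at 8.77 with LXR623 and 8.49 with DMSO (1.21-fold), and CTSA was at 11.8 with LXR623 and 11.6 with DMSO, a difference of 0.16. GLB1, which was not among the 37, differed by -0.051. Of the genes for glycolipid breakdown, GLA, the alpha-galactosidase deficient in Fabry disease, was at 8.65 with LXR623 and 8.39 with DMSO (1.19-fold). HEXA, deficient in Tay-Sachs disease, was at 8.17 with LXR623 and 7.93 with DMSO (1.18-fold). PSAP, the precursor of the saposins that present lipids to these enzymes, differed by 0.20, at 11.0 with LXR623 and 10.8 with DMSO. CTSZ, at 4.32 with LXR623 and 4.59 with DMSO, was the 1 lower gene, with a difference of -0.26, and the 1 gene of the group below the median level of all probe sets.

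**Figure D3:**
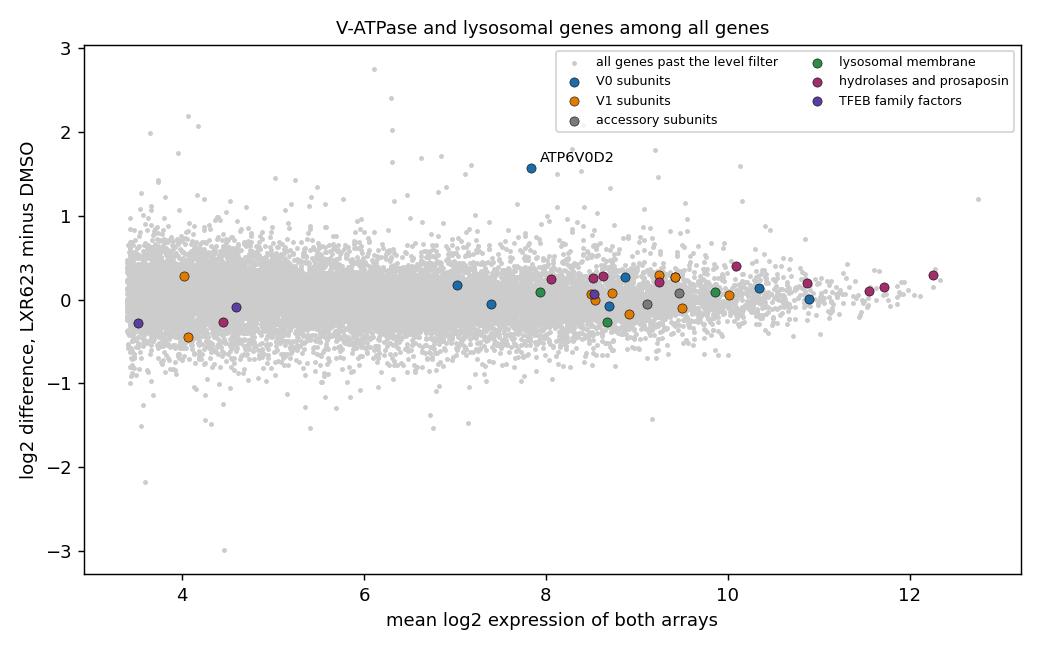
Log2 difference, LXR623 minus DMSO (vertical axis), against mean log2 expression of both arrays (horizontal axis) for the 16902 kept genes in grey and the 36 measured V-ATPase and lysosomal genes in color by role, 1 array per group. ATP6V0D2 lies above the cloud at a mean level of 7.84, and the other 35 lie within it.

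Lysosomal hydrolases and some further proteins of the lysosome outside the 37 were split evenly. Their list, called the other hydrolases below, also held NPC2, GM2A, GRN and CREG1, which are not hydrolases. Of 45 listed, 6 were not analysed here, and among the 39 kept genes 19 were higher and 20 lower, a share of 48.7% higher beside 48.8% of all kept genes, with a median of -0.0016. At the ends stood TPP1, the tripeptidyl peptidase deficient in a form of Batten disease, at 0.46, GAA, which breaks down glycogen, at 0.38, NAAA at -0.41 and RNASET2 at -0.32. LIPA, the acid lipase that frees cholesterol from its esters, differed by 0.22 and NPC2, which hands that cholesterol to NPC1, by 0.057. Both lists were also taken over genes with a mean level of at least 8, a setting chosen after the values were seen. There all 9 enzymes and activators of the first list were higher, with a median of 0.24. Of the second, 7 of 15 were higher (46.7%), with a median of -0.0016. The share of all kept genes of any level was 48.8%. In the first list the setting left out only CTSZ, its lower gene. That all 9 were higher, and that the median rose, therefore follows from the setting. Whether the lists differ was not tested.

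Genes that bring enzymes to the lysosome had a median of 0.069 over 23 kept members. Of these, 18 were higher (78.3%, beside 48.8% of all kept genes) and 5 lower. PLEKHM1, which tethers lysosomes to their fusion partners, was at 7.57 with LXR623 and 7.01 with DMSO (1.47-fold), outside the range of genes at its level. The sorting adaptor GGA3 differed by 0.27, its relative GGA1 by 0.21 and VPS16 of the tethering complexes by -0.26. Of the mannose phosphate receptors, IGF2R differed by 0.071 and M6PR by 0.0087, the value of M6PR turning to -0.031 with median centering and to -0.0046 with the lowess curve removed.

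Control of TFEB at the lysosome gave a median of -0.0032 over 18 kept genes. Of these, 8 were higher (44.4%, beside 48.8% of all kept genes), 9 lower and 1 equal. FNIP2, which with folliculin acts on the Rag GTPases, was the 1 gene at least 1.5-fold higher (beside 2.38% of all kept genes), at 7.86 with LXR623 and 7.27 with DMSO (1.52-fold). XPO1, the nuclear export receptor, differed by -0.36, LAMTOR4 of the Ragulator by 0.35 and the calcineurin subunit PPP3CB by -0.27. The folliculin gene FLCN differed by 0.058. A list of TFEB and TFE3 targets outside the lysosome lumen shares FNIP2, FLCN and RRAGD with this one. In it 6 of 10 kept genes were higher (60%, beside 48.8% of all kept genes), with a median of 0.12. WIPI1, which binds phosphoinositides on forming autophagosomes, was at 10.3 with LXR623 and 9.62 with DMSO (1.60-fold), and the autophagy receptor SQSTM1 differed by 0.34. GPNMB differed by -0.049 and PPARGC1A by -0.30. WIPI1 and FNIP2 were the 2 genes of the list's 10 at least 1.5-fold higher, beside 2.38% of all kept genes, and both lay outside the range of genes at their level.

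Galectins and repair factors that act on damaged lysosomes had a median of 0.11 over 11 kept genes. Of these, 10 were higher (90.9%, beside 48.8% of all kept genes). None reached 1.5-fold, where 2.38% of all kept genes were higher and 2.01% lower. UBE2QL1, a ubiquitin conjugase, differed by 0.42 at a low level, 5.02 with LXR623 and 4.60 with DMSO. ATG2A, a lipid transfer protein, differed by 0.37, YOD1 by 0.22 and PI4K2A by 0.20. Of the galectins that mark ruptured membranes, LGALS3 differed by 0.074 and LGALS8 by 0.070.

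**Figure D4:**
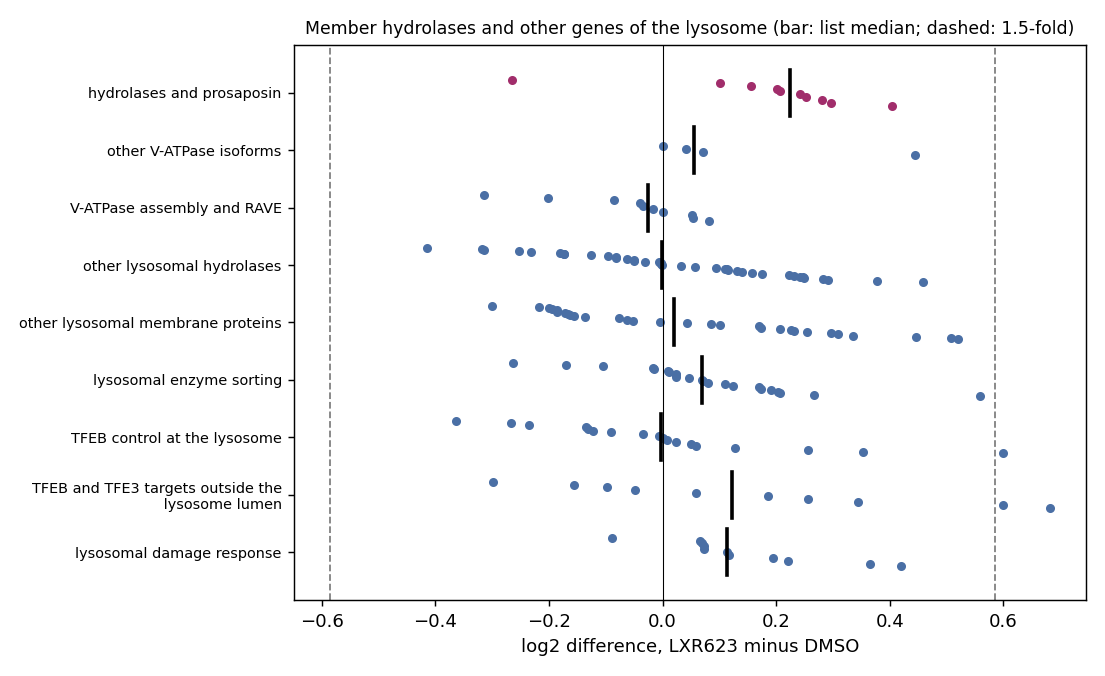
Log2 difference, LXR623 minus DMSO, of the 10 hydrolase and prosaposin members and of 8 further lists of lysosomal genes, 1 point per kept gene from 1 array per group, with list medians as bars and 1.5-fold as dashed lines. The median of the first list is 0.22 and that of the other hydrolases -0.0016, and only FNIP2, at 0.60 and present in 2 lists, and WIPI1, at 0.68, pass a dashed line.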

How the data were processed

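RNA of 1 LXR623 culture and 1 DMSO culture was measured on Affymetrix arrays. Per the labels, the authors made the deposited log2 values by RMA (background correction, quantile normalization, median polish) with affy 1.36.1 in R 2.15.1. Quantile normalization removes a shift shared by most genes. Neither the array model nor a genome build is given in the sources used here. The table held 23786 probe sets, of which 22458 carried a symbol, each for 1 gene. For each gene the log2 difference was taken, and lists were described by counts and medians beside all kept genes. No p-value was computed, since each group had 1 array, whose number limits the precision. The range of genes at a given level is the central 95% of the differences of the 500 genes nearest in mean level. From each further list, the 4 genes with the largest absolute difference and any past 1.5-fold were named. GLB1, LIPA, NPC1, NPC2, IGF2R, M6PR, FLCN, GPNMB, LGALS3 and LGALS8 were named after their values were seen. The members and lists were chosen with earlier results of these data known. Alternatives were median centering, removal of a lowess curve (span 0.3), dropping the level filter, raising it to the 50th percentile, taking means in place of medians, leaving out the most extreme member, and thresholds of 1.2-fold and 2-fold. The medians, counts and lowess curve were checked on the deposited differences shuffled across genes, with known shifts or a known bend added. Python 3.11.15, numpy 2.4.6, pandas 2.3.3, statsmodels 0.14.6 and matplotlib 3.10.9 were used.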

Additional observations from a re-analysis of the deposited data

How the results depend on the processing

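Over 18 medians and counts, 97 of 104 values under alternatives stayed close to the reported one, and 7 moved. Dropping the level filter could not change the member results, since all 36 measured members pass it. A median counted as moved when it shifted by more than the SD of its members divided by the square root of their number, and a count when it shifted by more than 1.5 times. At 1.2-fold, 9 members were higher and 4 lower, by construction. Centering each array on its median lowers every difference by 0.040. It gave -0.066 for the pump assembly list, -0.042 for the other hydrolases and 0.029 for enzyme sorting, and turned the accessory subunits to -0.024 and the other membrane proteins to -0.021. That list of membrane proteins was at -0.0040 without the level filter or without its most extreme gene. Medians near 0 also changed sign for TFEB control (0.019 with the lowess curve removed, mean 0.0049) and the other hydrolases (0.028 with the curve removed, mean 0.028), as did the membrane members by the mean (-0.027). The filter at the 50th percentile gave 0.26 for the other V-ATPase isoforms, with 2 genes left, and 0.033 for the other hydrolases. It left 1 TFEB family gene, so no median was computed there, nor for the accessory subunits without one of their pair. ATP6V0D2 differed by 1.53 after median centering and by 1.61 after removal of the lowess curve. None of the 36 members moved by more than an SD taken from genes at its level. These SDs were at least 0.20, so the centering shift of 0.040 could not exceed them. No paired analysis was possible because both groups were single arrays. The number of arrays and the dimness of some genes limit what can be resolved.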

Other observations

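After the value of ATP6V0D2 had been seen, 17 genes of osteoclast function were looked up, since the d2 subunit is best known from that cell. Of them 12 were kept, and 10 were higher on the LXR623 array (83.3%, beside 48.8% of all kept genes). At least 1.2-fold higher were 8 (66.7%, beside 15.3% of all kept genes). The median difference was 0.34. The list includes ATP6V0D2, TCIRG1, CTSK and PLEKHM1 described above and was prompted by the first of these. ATP6V0D2 is itself counted in these shares and in the median, so they are no independent result. CLCN7, with a difference of 0.30, and OSTM1 were counted above among the other membrane proteins. NFATC1, the master transcription factor of osteoclasts, was at 4.77 with LXR623 and 4.19 with DMSO (1.49-fold). ITGB3, the beta3 integrin, was at 10.1 with LXR623 and 9.67 with DMSO (1.31-fold), and the gelatinase MMP9 at 4.52 with LXR623 and 4.07 with DMSO, a difference of 0.45. OSCAR differed by 0.28 and TNFRSF11A by 0.074. NFATC1, MMP9, OSCAR, TNFRSF11A and CA2 lay below the median level of all probe sets. None of NFATC1, ITGB3 and MMP9 left the range of genes at its level. ACP5 was not analysed here. DCSTAMP, OCSTAMP, CALCR and SNX10 were below the level filter, and CA2 differed by -0.10 and OSTM1 by -0.19.

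The neighbors of ATP6V0D2 among named protein-coding genes were looked up as well. PSKH2 on one side was at 4.65 with LXR623 and 4.30 with DMSO, a difference of 0.35, and CA2 beyond it differed by -0.10. Both PSKH2 values were below the median level of all probe sets (4.89). SLC7A13 on the other side was below the level filter, and WWP1 beyond it differed by -0.050.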
